A study of Mus musculus with 4 samples.

Results

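The transcripts described here belong to 10 genes of natural killer (NK) cells and cytotoxic lymphocytes, chosen by name: Klrk1, Klrb1c, Klrd1, Nkg7, Gzma, Gzmb, Prf1, Ncr1, Eomes and Tbx21. Of these, 6 had a row among the 10598 genes of the deposited table (Klrk1, Klrb1c, Klrd1, Nkg7, Gzma and Prf1). Gzmb, Ncr1, Eomes and Tbx21 were not analysed here. RNA had been sequenced from the thymus of C57BL/6J mice, with 1 library in each of 4 groups. The groups were wild type given N-methyl-N-nitrosourea (MNU wild type), Camk2g knockout (CAMKIIgamma-/-) given MNU (MNU knockout), and both genotypes given vehicle in place of MNU (vehicle wild type and vehicle knockout). MNU, an alkylating mutagen that induces T-cell lymphoma in mice, was injected once at a dose of 75 mg/kg in mice 4 to 5 weeks old, and all 4 groups are labelled with a time of 6 months. The sources used here do not say how many mice went into a library or whether a given thymus held a tumour. The design text calls the condition with MNU malignant and asks how loss of Camk2g, a calcium/calmodulin-dependent kinase gene, altered expression in it.

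NK cells kill infected or transformed cells without prior sensitisation. Surface receptors weigh activating against inhibitory signals, and once activation prevails, granules holding perforin and granzymes are released onto the target. CD8 T cells, NKT cells and gamma-delta T cells use the same granule proteins and share several of the receptors, so in thymus these transcripts are not exclusive to NK cells. The thymus holds few such cells beside its many developing T cells.

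Values are the authors' normalised counts, in which 1 unit stood for about 1 read, and they summed to between 32911362 and 34836257 per library. Since every group had only 1 library, differences could not be set against a spread between replicates, no p-value was computed, and a difference can belong to the library or animal rather than to the genotype or treatment. The threshold for calling a gene higher or lower was a 2-fold difference after 10 was added to both values, which makes differences of low genes look smaller, and the counts are set beside the percentage of all 10587 genes that passed the same threshold. Camk2g stood at 2749 in vehicle wild type, 3173 in MNU wild type, 488.7 in vehicle knockout and 29.7 in MNU knockout. The library labelled vehicle knockout thus kept 17.8% of the wild-type level. Taking 42 genes that exceeded their levels in both vehicle wild type and MNU knockout more than 20-fold in MNU wild type, that library held a median of 15.4% of the wild-type MNU level. Its values for the NK and cytotoxic genes are therefore also given with this share of the wild-type MNU profile subtracted. Markers of other cell types and lists of related genes are given for that library as deposited only. Their calls near the 2-fold threshold could differ after subtraction. Of 6 thymic epithelial markers, 5 were at or near 0 in MNU wild type and Cldn4 stood at 457. Prss16, a protease of cortical epithelium, stood at 8.26 there and at 18685 or more in the other libraries, and Foxn1, the epithelial master regulator, was listed at 0.

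Among the receptor genes, the wild-type library with MNU was the lowest of the 4 each time, and both knockout libraries were above vehicle wild type. Klrk1, which encodes the activating receptor NKG2D, stood at 316.3 normalised counts in vehicle wild type, 1.75 in MNU wild type, 1016 in the library labelled vehicle knockout and 858 in MNU knockout. Klrb1c, which encodes NK1.1, the antigen used to mark NK and NKT cells in C57BL/6 mice, stood at 217, 12.0, 629.7 and 544 in the same order. Klrd1, which encodes CD94, the partner chain of the NKG2 receptors, stood at 143, 4.53, 269.7 and 275. The order of the libraries was the same for Klrk1 and Klrb1c, and the knockout libraries changed places for Klrd1, where they lay 1.02-fold apart. In MNU wild type the Klrk1 value lay at the second and the Klrd1 value at the fifth of the regular steps of low values, so these levels rest on a few reads.

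The effector genes did not share one pattern. Nkg7, which encodes a granule membrane protein needed for degranulation, followed the receptors, at 395 normalised counts in vehicle wild type, 18.5 in MNU wild type, 887 in the library labelled vehicle knockout and 765 in MNU knockout. Prf1, which encodes the pore-forming protein perforin, stood at 129, 484, 234 and 219 in the same order, so that its highest value was in the library where the receptors were lowest. Gzma, which encodes the granule protease granzyme A, stood at 1363, 1491, 1884 and 2242, and its lowest and highest libraries differed by 1.64-fold.

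**Figure D1:**
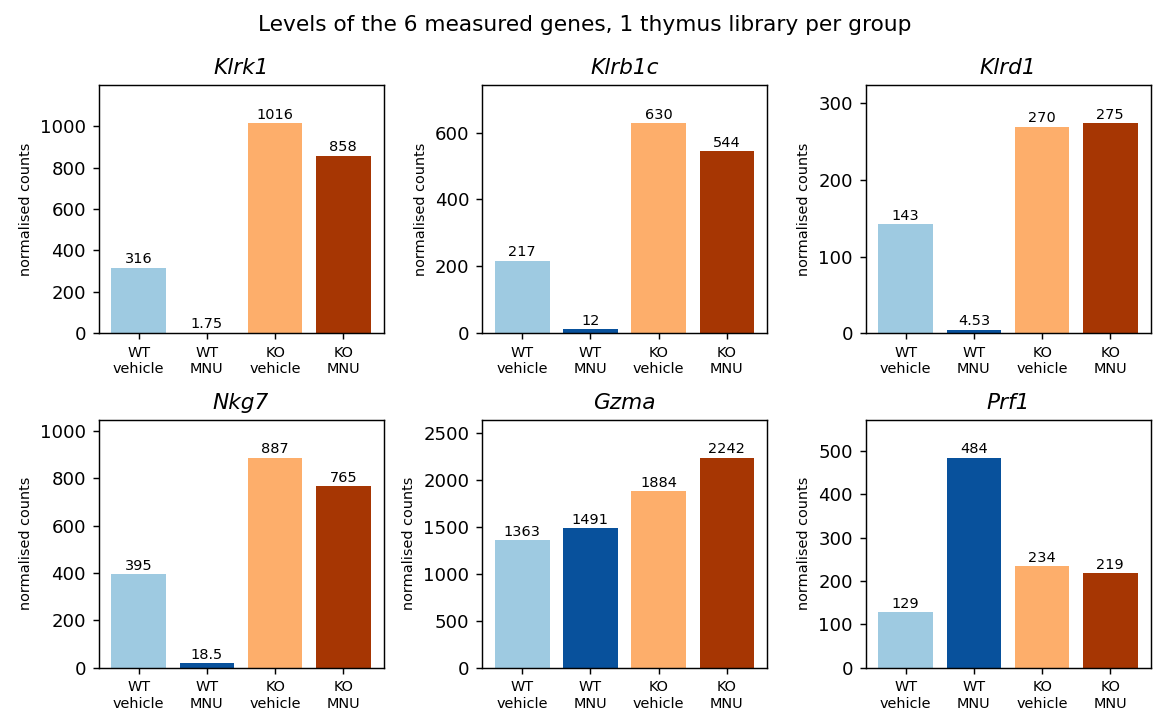
Normalised counts (vertical axis, starting at 0, scaled per gene) of the 6 genes in the 4 thymus libraries, 1 bar per library. Klrk1, Klrb1c, Klrd1 and Nkg7 are at 1.75 to 18.5 in MNU wild type and are higher in both knockout libraries than in vehicle wild type. Prf1 has its highest value, 484, in MNU wild type, and Gzma lies between 1363 and 2242 throughout.

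Promoter sequences are shown for Klrk1, which differed most between the wild-type libraries among the 6 genes, for Nkg7, the granule gene that followed it, and for Prf1, the granule gene that did not. Each runs 5′ to 3′ along the gene's strand, from 250 bases before to 50 bases after a RefSeq start site (GRCm38.p6, another build than the mm9 named for the files). The windows are chr6:129623815-129624114 on the minus strand for Klrk1, chr7:43436888-43437187 on the plus strand for Nkg7 and chr10:61297586-61297885 on the plus strand for Prf1. Capitals mark letters matching, on either strand, a T-box core (GGTGTG), a RUNX core (TGTGGT) or a STAT palindrome (TTCNNNGAA). T-box, RUNX and STAT factors are known regulators of NK and cytotoxic T cell genes.
Klrk1: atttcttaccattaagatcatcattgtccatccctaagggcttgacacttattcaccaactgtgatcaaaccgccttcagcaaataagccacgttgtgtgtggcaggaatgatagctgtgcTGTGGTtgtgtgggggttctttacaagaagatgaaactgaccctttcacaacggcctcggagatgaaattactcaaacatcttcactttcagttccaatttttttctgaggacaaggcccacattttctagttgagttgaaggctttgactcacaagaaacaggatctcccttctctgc
Nkg7: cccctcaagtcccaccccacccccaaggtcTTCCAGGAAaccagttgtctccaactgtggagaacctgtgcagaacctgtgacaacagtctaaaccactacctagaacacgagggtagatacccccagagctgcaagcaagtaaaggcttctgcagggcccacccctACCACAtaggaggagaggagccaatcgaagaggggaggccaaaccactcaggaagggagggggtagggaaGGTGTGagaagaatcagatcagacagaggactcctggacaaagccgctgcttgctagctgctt
Prf1: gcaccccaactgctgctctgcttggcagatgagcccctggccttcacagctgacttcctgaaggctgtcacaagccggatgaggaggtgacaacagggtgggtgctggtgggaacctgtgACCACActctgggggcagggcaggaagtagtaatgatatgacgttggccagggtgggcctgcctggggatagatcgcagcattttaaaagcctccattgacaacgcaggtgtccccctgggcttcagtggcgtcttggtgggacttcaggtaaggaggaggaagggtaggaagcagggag

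RefSeq windows were matched for 5 of the 6 genes, all but Klrd1. The RUNX letters were present once in each of the 5 windows, against 16.8% of 32851 promoter windows of the same length. They began 129 bases before the start site in Klrk1, 89 in Klrb1c, 83 in Nkg7, 130 in Prf1 and 50 in Gzma. The T-box and STAT letters were present in 1 of the 5 windows each, both in Nkg7, against 19.0% and 8.30% of all windows. The RUNX letters were thus found in the windows of genes that were lower in MNU wild type, of Prf1, which was higher, and of Gzma, which was neither. A run of 6 letters is a description of the window and not a site of binding. The T-box and RUNX letters can overlap in a sequence, and did not overlap in these windows.

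In wild-type mice, the MNU library held far fewer receptor and Nkg7 transcripts than the library without MNU and more Prf1. Nkg7 was 21.4-fold lower, Klrd1 31.5-fold lower and Klrb1c 18.1-fold lower. Klrk1 stood at 0.554% of its level without MNU, and its log2(value + 10) difference was -4.80. Prf1 was 3.76-fold higher and Gzma 1.09-fold higher. Of the 6 genes 4 were at least 2-fold lower, against 14.2% of all genes, and 1 was higher, against 7.14%. Their median log2 difference was -3.38, where that over all genes was -0.01. In bulk tissue fewer cells of a type and less RNA per cell cannot be told apart.

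Markers of the T lineage and of macrophages stood at other ratios in the same library, and their counts are read against the same 14.2% and 7.14% of all genes. The summed level of 6 T-lineage markers was 100872 in vehicle wild type and 69784 with MNU, with 1 of 6 at least 2-fold lower (Cd5, 4.80-fold) and 1 higher (Zap70, 2.26-fold). Of 7 double-positive thymocyte markers 4 were at least 2-fold lower and 1 higher: Dntt was 13.6-fold, Rag1 3.79-fold and Rag2 3.22-fold lower, and Ptcra 4.11-fold higher. Cd8a, also a co-receptor chain of cytotoxic T cells, differed least among these 7, at 59567 and 50774. The summed level of 7 macrophage markers was 15485 and 29104, with 4 of 7 at least 2-fold higher, none lower and none at 0. Their part in the higher Prf1 value was not tested.

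**Figure D2:**
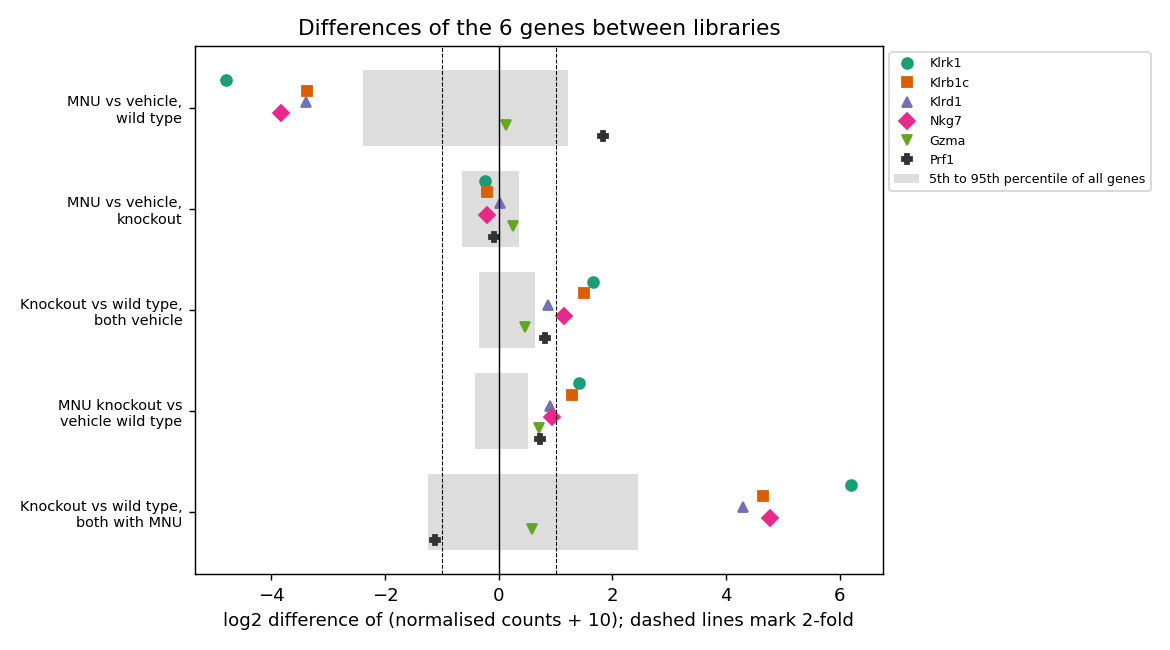
Log2 differences of (normalised counts + 10) for the 6 genes in 5 comparisons of single libraries. Grey bars span the 5th to 95th percentile of all 10587 genes and dashed lines mark 2-fold. In wild type the 3 receptor genes and Nkg7 lie below the grey bar with MNU and Prf1 above it, whereas all 6 genes lie inside the bar for MNU in the knockout.

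In knockout mice, all 6 genes stayed within 2-fold between the libraries with and without MNU. The ratio with MNU to without was 0.844 for Klrk1, 0.865 for Klrb1c, 1.02 for Klrd1, 0.863 for Nkg7, 1.19 for Gzma and 0.935 for Prf1. At the 2-fold threshold 0.331% of all genes were higher and 2.95% lower in this comparison, and 0 of the 6 were either. After subtraction of the wild-type MNU share from the library labelled vehicle knockout, all 6 were again within 2-fold. The lowest ratio was then 0.715, for Klrk1, and the highest was 1.16, for Prf1.

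The MNU change thus differed between the genotypes by at least 2-fold for 5 of the 6 genes. The log2 MNU change in the knockout minus that in wild type was 4.55 for Klrk1, 3.16 for Klrb1c, 3.42 for Klrd1 and 3.62 for Nkg7, against 15.8% of all genes at or above 1. For Prf1 it was -1.92, against 9.53% of all genes at or below -1. For Gzma it was 0.12. These differences between single libraries were not tested.

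Without MNU, all 6 genes were above their wild-type level in the library labelled knockout, and the receptors Klrk1 and Klrb1c differed most. Klrk1 was 3.21-fold higher, Klrb1c 2.90-fold and Nkg7 2.25-fold. Klrd1 was 1.89-fold, Prf1 1.81-fold and Gzma 1.38-fold higher, all below the threshold. Thus 3 of 6 were at least 2-fold higher, against 2.59% of all genes, and 0 were lower, against 0.359%. Their median log2 difference was 1.01, where that over all genes was 0.00 to 2 decimals. The genes did not all lie equally far out: Klrk1 was at percentile 98.8 of all genes in this comparison and Gzma at percentile 92.3.

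The receptors and Nkg7 were nearly absent from MNU wild type, so subtracting that share took little from them. The part removed by the subtraction was between 0.0265% and 0.320% of the value for Klrk1, Klrb1c, Klrd1 and Nkg7. It was 12.2% for Gzma and 31.9% for Prf1. After subtraction and rescaling, Klrk1 was 3.80-fold above vehicle wild type, Klrb1c 3.42-fold, Nkg7 2.65-fold, Klrd1 2.23-fold, Prf1 1.46-fold and Gzma 1.43-fold. By the 2-fold threshold 4 of the 6 genes were then higher, against 1.72% of all genes.

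The knockout library with MNU, whose Camk2g level was 1.08% of that in vehicle wild type, gave similar ratios to vehicle wild type. Klrk1 was 2.71-fold higher, Klrb1c 2.51-fold, Nkg7 1.94-fold, Klrd1 1.92-fold, Prf1 1.70-fold and Gzma 1.64-fold. Here 2 of 6 were at least 2-fold higher, against 1.57% of all genes, and 0 were lower, against 1.11%. The median log2 difference was 0.92, with all 6 genes between percentile 97.0 and percentile 99.4 of all genes. The 2 knockout ratios of each gene share the same wild-type library, so that a low value in that library would raise both.

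**Figure D3:**
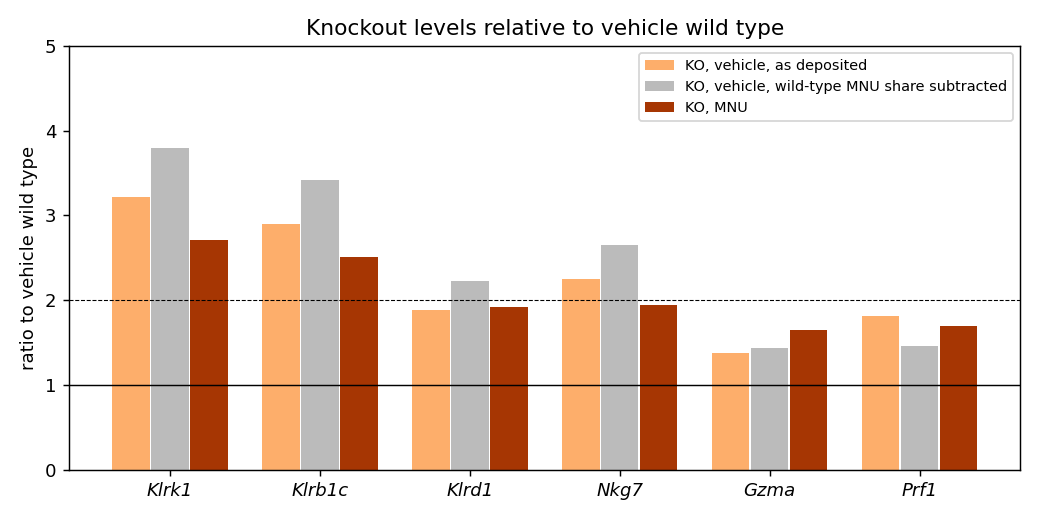
Ratio of each gene's normalised counts in the knockout libraries to vehicle wild type (solid line at 1, dashed line at 2), with the library without MNU as deposited and after subtraction of the wild-type MNU share. All 18 bars are above 1, from 1.38 for Gzma to 3.80 for Klrk1.

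Markers of other cell types differed in both directions between the knockout libraries and vehicle wild type. The summed level of 6 B-cell markers was 3079 in vehicle wild type, 4857 in the library labelled vehicle knockout and 8084 in MNU knockout. At least 2-fold higher than in vehicle wild type were 1 of 6 in the library without MNU (Blk, 2.19-fold) and 6 of 6 in the library with MNU, against 2.59% and 1.57% of all genes. Blk stood at 796 in MNU wild type. Its call without MNU was near the threshold and could be lost after subtraction of the wild-type MNU share. The summed macrophage markers stood at 15485, 24826 and 28424, the T-lineage markers at 100872, 83255 and 99649, and 7 double-positive thymocyte markers at 283253, 188512 and 240402. The 4 neutrophil markers summed to 530.5, 425 and 1702, and all 4 were at least 2-fold higher in MNU knockout (Ngp 7.91-fold). The 2 haemoglobin genes summed to 29709, 10068 and 21460.2, and both were at least 2-fold lower in the library labelled vehicle knockout (Hbb-b1 2.98-fold), against 0.359% of all genes. None of these markers was at 0 in the knockout libraries. The part of other lymphoid and myeloid cells in the higher NK and cytotoxic values was not tested.

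With MNU in both genotypes, the receptors and Nkg7 were higher in the knockout and Prf1 was lower. Nkg7 was 41.4-fold higher (765 against 18.5), Klrb1c 45.5-fold and Klrd1 60.6-fold. Klrk1 stood at 858 against 1.75, and its log2(value + 10) difference was 6.21. Prf1 was 2.22-fold lower and Gzma stood at 2242 against 1491. Of the 6 genes 4 were higher, against 15% of all genes, and 1 was lower, against 7.37%.

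A list for NK receptors, their adaptors and other surface proteins held 42 genes, of which 16 had a row. Among these 16 further genes, the wild-type library with MNU was at least 2-fold lower for 7 and higher for 4. The shares of all genes were 14.2% and 7.14%, and the median log2 difference of the 16 was -0.46. Here and below, the counts of a list describe only its genes with a row. Klra9, a Ly49 receptor gene, stood at 399 normalised counts in vehicle wild type, 2.68 in MNU wild type, 285 in the library labelled vehicle knockout and 464 in MNU knockout. Klra9 was therefore not above wild type in that knockout library, unlike Klrk1 and Klrb1c. Klrc2, an NKG2 chain that pairs with CD94, stood at 62.5, was listed at 0, and stood at 149 and 108. Both belong to families of near-identical genes whose reads can be split, so their single values are uncertain. Cd226, an activating receptor, was 8.91-fold lower and Cd7 6.01-fold lower in MNU wild type. Itgam, an integrin chain shared with myeloid cells, was 4.94-fold higher. Against vehicle wild type, 2 of 16 were at least 2-fold higher in the library labelled vehicle knockout (Klrc2, 2.38-fold, and Lilrb4, 2.06-fold), against 2.59% of all genes. In MNU knockout 4 of 16 were (Lilrb4, Fcer1g, Slamf7 and Tigit, 2.09-fold to 2.28-fold), against 1.57% of all genes. Lilrb4 stood at 1327 in MNU wild type. Its call in the library labelled vehicle knockout was near the threshold and could be lost after subtraction of the wild-type MNU share.

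The adaptors through which these receptors signal, and the receptor gene Fcgr3, were not nearly absent from MNU wild type as Klrk1, Klrb1c and Klrd1 were. Against vehicle wild type, Fcer1g was 2.26-fold and Fcgr3 2.41-fold higher there, and Hcst and Tyrobp were within 2-fold. Hcst, which encodes DAP10, the adaptor of NKG2D, stood at 363, 295, 508 and 571 in vehicle wild type, MNU wild type, the library labelled vehicle knockout and MNU knockout. Tyrobp, which encodes DAP12, stood at 1264, 1498, 1794 and 2205. Fcer1g, the Fc receptor gamma chain, stood at 735, 1663, 1339 and 1655, and Fcgr3, the low-affinity IgG receptor, at 795, 1918, 1498 and 1481. Tyrobp, Fcer1g and Fcgr3 are also expressed by macrophages, and the summed macrophage markers stood at 15485, 29104, 24826 and 28424 in the same order. The part of macrophages in the adaptor and Fcgr3 values was not tested.

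A list of granule and killing genes held 23, of which 12 had a row. Of these 12 further genes, 5 were at least 2-fold lower and 1 higher in MNU wild type, against 14.2% and 7.14% of all genes. Their median log2 difference was -0.44. Ctsw, which encodes cathepsin W, a protease of NK and CD8 T cells, was 17.7-fold lower (885 against 50.1). Serpinb9, which encodes a granzyme B inhibitor, was 5.70-fold lower and Stx11, a syntaxin used in granule release, 3.87-fold lower. Lyst, a regulator of lysosome-related organelles, was 2.37-fold higher. Ctsc, which encodes cathepsin C, the protease that activates granzymes, stood at 3505, 3782, 4570 and 5623 in vehicle wild type, MNU wild type, the library labelled vehicle knockout and MNU knockout. None of the 12 reached 2-fold in either knockout library against vehicle wild type, where Ctsw was 1.47-fold and 1.72-fold higher.

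Of 19 listed transcription factor genes of NK and innate lymphoid cells, 14 had a row. Of these 14 further genes, 5 were at least 2-fold lower and 3 higher in MNU wild type, against 14.2% and 7.14% of all genes. The 3 higher ones were Nfil3, needed for NK development (3.66-fold), Runx3, a factor of CD8 T cells and NK cells (3.40-fold), and Tox2, which stood at 116 without and 329 with MNU. Klf2, a factor of lymphocyte migration, was 3.61-fold lower and Tox 2.88-fold lower. None of the 14 reached 2-fold in either knockout library against vehicle wild type. Id2, an inhibitor of E proteins required by NK cells, stood at 1899, 1530, 3156 and 2871 in the order used above, 1.66-fold and 1.51-fold above vehicle wild type in the knockout libraries.

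Of 16 listed genes of the IL-15, IL-12 and IL-18 axis, 11 had a row. Of these 11 genes, 4 were at least 2-fold lower and 1 higher in MNU wild type, against 14.2% and 7.14% of all genes. None of the 11 reached 2-fold in either knockout library against vehicle wild type, with median log2 differences of 0.12 without and 0.13 with MNU. Il2rb, the receptor chain through which NK cells take their IL-15 signal, stood at 1254, 901, 2510 and 1929 in vehicle wild type, MNU wild type, the library labelled vehicle knockout and MNU knockout. Its log2(value + 10) difference of 0.99 between that knockout library and vehicle wild type was just short of the threshold. This holds for the values as deposited, without subtraction of the wild-type MNU share. Il7r, the IL-7 receptor chain of early and mature lymphocytes, was 14.7-fold lower with MNU in wild type and Il21r 5.31-fold lower. Il12rb2, an IL-12 receptor chain, was 3.75-fold higher.

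A list of 15 chemokine and migration genes was drawn up for NK and effector cells, though not all are particular to these cells. A row was present for 13 of them. Of the 13, 10 were at least 2-fold lower in MNU wild type and 0 higher, against 14.2% and 7.14% of all genes. Their median log2 difference was -2.71. Ccl5, a chemokine of cytotoxic lymphocytes, was 25.2-fold lower, and Cxcl9 and Cxcl10, ligands of Cxcr3, were 9.88-fold and 29.5-fold lower. Ccr7, the lymph node homing receptor, was 67.8-fold lower. In the library labelled vehicle knockout, 3 of 13 (Cxcr6, Cxcr3 and Ccl4) were at least 2-fold higher than in wild type, against 2.59% of all genes. In MNU knockout 4 of 13 were (the same 3 and Cx3cr1), against 1.57%. Cxcr6, a receptor of NKT and resident NK cells, stood at 312, 31.5, 919 and 957 in vehicle wild type, MNU wild type, the library labelled vehicle knockout and MNU knockout. Cxcr3 stood at 177, 24.0, 499 and 562, and Cx3cr1, a receptor of mature NK cells and of macrophages, at 376, 49.1, 729 and 906. For Cxcr6, Cxcr3 and Cx3cr1 both knockout libraries were above vehicle wild type and MNU wild type was the lowest. Ccl4, a chemokine of activated NK cells and macrophages, stood at 31.7, 70.6, 95.6 and 165 and was lowest in vehicle wild type. Other receptor genes of the list were not higher in the library labelled vehicle knockout: Ccr7 stood at 2829 in vehicle wild type and 2195 there, Cxcr4 at 12324 and 9135, and S1pr1 at 1399 and 1177.

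Of 21 listed genes for ligands of NK receptors, 9 had a row. Of these 9 genes, 5 were at least 2-fold lower in MNU wild type and 0 higher, against 14.2% and 7.14% of all genes. Clec2d, which encodes a ligand of Klrb1 family receptors, was 7.78-fold lower. The class I genes H2-K1 and H2-D1, whose products are bound by Ly49 receptors, were 4.43-fold and 2.70-fold lower, and H2-T23, which encodes Qa-1, the ligand of CD94 with NKG2A, was 2.62-fold lower. B2m, the light chain of class I molecules, stood at 44295 without and 50784 with MNU. Class I genes are close copies of each other, so their single values are uncertain. None of the 9 reached 2-fold in either knockout library against vehicle wild type.

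**Figure D4:**
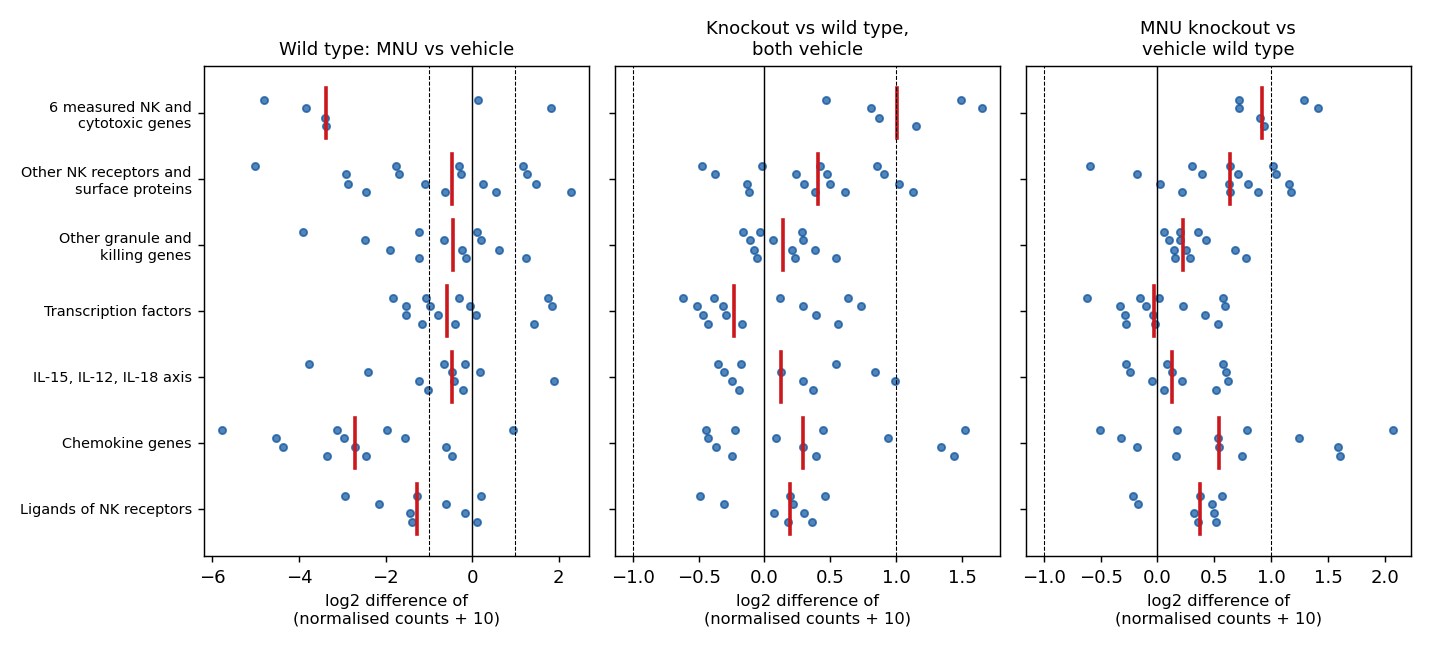
Log2 differences of (normalised counts + 10) for the 6 genes and 6 lists of related genes in 3 comparisons of single libraries. Points are genes, red lines are list medians, dashed lines mark 2-fold, and the horizontal scale differs between the panels. In MNU wild type the chemokine median is -2.71 and the granule median -0.44. In the knockout panels most listed genes outside the 6 lie within 2-fold.

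The profiles of the 6 genes over the 4 libraries fell into a close group and outlying genes. Distances here are Euclidean, between log2(value + 10) profiles centred on each gene's mean, over 4 libraries. Klrb1c and Nkg7 lay 0.345 apart, Klrb1c and Klrd1 0.520, and Klrd1 and Nkg7 0.513. Klrk1 lay between 1.19 and 1.68 from these. Gzma lay between 3.23 and 4.88 from the receptors and Nkg7, and Prf1 between 4.60 and 6.21. Gzma and Prf1 lay 1.40 apart.

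The 8 other genes with a mean of at least 100 whose profiles lay nearest to the mean profile of the 6 were Ly6a, Oas2, Ly6i, Rtp4, Gm4951, Oas1a, Card6 and Irf7, at distances of 0.133 to 0.446. Ly6a, the Sca-1 surface antigen, stood at 3783, 862, 8067 and 7200 in vehicle wild type, MNU wild type, the library labelled vehicle knockout and MNU knockout. Irf7, an interferon-induced regulator, stood at 2435, 411, 3361 and 4313. The 6 genes themselves lay between 0.926 (Klrd1) and 3.69 (Prf1) from their mean profile, so that mean stood for none of them closely.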

How the data were processed

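The deposited table held a signal per gene and library, named normalised counts by the authors, with 1 thymus library for each of 4 groups taken from the labels. TopHat2 2.0.8b, edgeR and mm9 are named, without role, per the submitters' processing notes; counting tool, annotation, gene filter and normalisation: not given in the sources used here. Total RNA libraries were made with a TruSeq kit, per the labels' protocols. Values were not whole numbers, so no count model or counting interval was computed. Values were used as scaled, with a pseudocount of 10 before the log2 was taken. A minimum mean of 10 over the libraries removed 11 of 10598 genes and none of the 6 genes described. Ratios are of the normalised counts themselves. Of the symbols, 10521 matched RefSeq, from which promoter windows were taken. The genes, lists, motifs and rules were chosen with earlier results of these data known. The rule named, from each list, up to 4 genes with the largest difference that reached 100 in the higher library. Adaptors, Cd8a, Ctsc, Tox2, B2m, Cxcr3, Cxcr4 and S1pr1 were named in some comparisons outside it. The fold rule and the share estimate were tested on simulated data. Alternatives were other pseudocounts (2.5 and 40), no filter or a minimum mean of 100, median-of-ratios and upper-quartile scaling, a 4-fold threshold, the subtracted share, and replacement of the vehicle knockout library. Computations used Python 3.11.15, pandas 2.3.3 and NumPy 2.4.6.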

Additional observations from a re-analysis of the deposited data

Results flagged for a closer look

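For Prf1 and Klrd1 the MNU change went in opposite directions in the genotypes, a difference between single libraries that was not tested. The log2 MNU change in the knockout minus that in wild type was -1.92 for Prf1, which was 3.76-fold higher with MNU in wild type and stood at 0.935 of its level in the knockout. It was 3.42 for Klrd1, where the knockout libraries lay only 1.02-fold apart (269.7 without and 275 with MNU), so that the opposite sign rests on a small difference.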

How the results depend on the processing

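No paired analysis was possible because each group had 1 library. Neither scaling nor either filter moved a count or median of the 6 genes past the tolerances used (1.5 times, or the 2-fold threshold). Low values made the size of the MNU difference in wild type depend on the pseudocount: the median log2 difference was -4.08 with 2.5 and -2.17 with 40, and that between genotypes with MNU was 5.22 and 3.16. With 40, the median for the vehicle knockout against vehicle wild type was 0.93 and that for the difference of the MNU changes 2.09. At a 4-fold threshold 0 of the 6 genes were higher with MNU in wild type and 0 were lower in the MNU knockout than in MNU wild type. Against vehicle wild type 0 were higher in the vehicle knockout and 0 in the MNU knockout. A lower MNU change in the knockout was met by 0. All 12 percentages of all genes also moved at 4-fold, so these counts cannot be read against the 2-fold percentages given above. Putting vehicle wild type in place of the library labelled vehicle knockout repeats a comparison given above with its percentage of all genes. There 2 genes were higher in the MNU knockout, at a median of 0.92. With MNU knockout in place of the library labelled vehicle knockout, the median against wild type was also 0.92. Depth limits the receptor values in MNU wild type, which rest on few reads.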

Other observations

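The stretch of mouse chromosome 6 from Klrb1c to Klra9, part of the NK gene complex, was described after the values were seen. It held 35 protein-coding RefSeq genes, of which 13 had a row in the table, among them Klrb1c, Klrd1 and Klrk1. In MNU wild type 10 of the 13 were at least 2-fold lower and 1 was higher, against 14.2% and 7.14% of all genes. They included genes that are not NK receptors: Cd69, an early activation antigen, stood at 1980.3 in vehicle wild type, 41.7 in MNU wild type, 1663 in the library labelled vehicle knockout and 1751 in MNU knockout. Gabarapl1, an autophagy gene, stood at 1953, 348, 1676 and 1528. Clec2i was within 2-fold (1424, 1531, 1147 and 1261). The 10 lower ones included both ends of the stretch, Klrb1c and Klra9, and also Klrd1, Klrk1, Klrc2 and Clec2d. The lower values of these genes were given above, so part of that count repeats them. In the library labelled vehicle knockout 3 of the 13 were at least 2-fold higher than in vehicle wild type, against 2.59% of all genes. They were Klrc2, Klrb1c and Klrk1, all given above, so this count repeats earlier values. In that comparison 0 of the 13 were lower, against 0.359% of all genes.

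The profiles nearest to single genes were also described after the values were seen. For Klrb1c the nearest were Nkg7 and Cxcr6, at distances of 0.345 and 0.349, followed by ORF63 and Ehf, at 0.472 and 0.491. For Nkg7 the nearest was Ehf, at 0.292. For Klrd1 the nearest were Ccl11 and Kazald1, at 0.277 and 0.284. The nearest profiles were thus not only those of lymphocyte genes. For Prf1 the 5 nearest began with E130012A19Rik, Osbpl3 and Naip7, at 0.111, 0.192 and 0.199. Mrc1, the macrophage mannose receptor, followed at 0.203 (1271, 4996, 2570.2 and 2020.5 in the order above) and Ms4a6d at 0.234 (266, 1097, 582 and 541). For Gzma the 5 nearest were Adap2 at 0.0413, Ctsc at 0.0608, Rab3il1 at 0.066, Gm2a at 0.0737 and Tyrobp at 0.088. Gzma varied by under 2-fold, so short distances to it are met by other genes that varied little.

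Klrk1 lay nearest to Ptn, which encodes the growth factor pleiotrophin and stood at 240.0, 1.75, 701 and 622, and to Igj, the joining chain of secreted antibody (8896, 356, 20492 and 26869).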
